A study of Mus musculus with 9 samples.

Results

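Dendritic cells lacking the class II transactivator CIITA were set against dendritic cells lacking the I-A beta chain, array by array within each of 3 experiments. The comparison uses 6 of the 9 arrays of the series, 3 titled CIITA-/- and 3 titled IAb-/-, chosen by those titles and paired by the experiment number in them. Total RNA of mouse dendritic cells at day 10 was measured on Affymetrix arrays. The 3 remaining arrays, of wild-type B6 cells with 1 in each experiment, are given beside the main genes to show which of the mutants lay away from the wild type. The title of 1 CIITA-/- array has no experiment number, and it was taken as experiment 2 because experiments 1 and 3 already had theirs. The labels give neither the strain carrying each deletion nor the part of the gene that was disrupted, and B6 is named for the wild-type cells alone. Nor do they say whether the arrays came from separate mice or cultures, so a p-value here reflects variation among arrays alone, and that variation could be technical.

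CIITA is a coactivator that does not bind DNA itself. It is recruited by proteins assembled on the X and Y boxes upstream of class II genes, among them the RFX complex and NF-Y, and it is needed for transcription of the classical class II chains in dendritic cells. The I-A beta chain, encoded by H2-Ab1, pairs with the I-A alpha chain to form the class II molecule that carries peptide to CD4+ T cells. Cells of either mutant are therefore short of surface I-A, but at a different step. In CIITA-/- cells the genes are not transcribed normally, whereas in IAb-/- cells a partner chain is missing and the transactivator remains. The mutants share the shortage of surface I-A but differ in the gene targeted. A difference between them can lie with either mutant, so B6 values are given beside the main genes.

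The upstream sequences of 4 class II genes are shown because 3 of the genes lower in CIITA-/- cells hold an X-box-like and a Y-box stretch at close spacing. Capitals mark the Y-box core ATTGG and, where present, the X-box letters AACNGATG; each line is written 5′ to 3′ on the gene's own strand and ends before the start site. The sequences are from RefSeq, build GRCm38.p6.
H2-Eb1, chr17:34305748-34305822, plus strand: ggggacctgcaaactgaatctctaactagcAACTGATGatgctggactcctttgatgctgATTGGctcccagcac
H2-DMb1, chr17:34153070-34153144, plus strand: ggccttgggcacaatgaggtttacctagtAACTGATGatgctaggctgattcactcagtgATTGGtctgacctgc
H2-DMb2, chr17:34145099-34145173, plus strand: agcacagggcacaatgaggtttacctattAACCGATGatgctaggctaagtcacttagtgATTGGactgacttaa
H2-Aa, chr17:34287857-34287931, minus strand: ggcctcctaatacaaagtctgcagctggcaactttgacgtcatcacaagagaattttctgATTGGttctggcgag
In H2-Eb1 the X letters began 30 bases before the Y core, and in H2-DMb1 and H2-DMb2 31 bases before it. H2-Aa held the Y core with no match to these X letters, as did H2-Oa, H2-Ob and 1 of the listed H2-DMa promoters, which are not printed. Only this fixed spelling was searched, so a missing match does not show that a gene lacks an X box. H2-Ab1, Cd74 and Ciita are named without sequence. Both motifs were searched on both strands in the 250 bases before the start of 32851 promoters, after the class II sequences had been looked at. ATTGG was found in 33.8% of them and AACNGATG in 1.98%. The X letters starting up to 40 bases before the Y core on the same strand occurred in 10 promoters (0.0304%), and 4 of those belonged to the class II genes H2-Eb1, H2-Eb2, H2-DMb1 and H2-DMb2. A match is a description of letters and not a shown binding site.

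Intensities were read against a noise limit, set as the size that 95% of the negative values in a table do not exceed. It was 2203 units in experiment 1, which was run on another array design, and 1701 units in experiments 2 and 3. Of 9977 probe sets shared by both designs, 3400 had the brighter of the CIITA-/- and IAb-/- arrays above this limit in every experiment. All arrays had nearly the same trimmed mean, between 2500.0 and 2502.6 units, and between 29.6% and 35.3% of probe sets lay above the noise limit on each. The hybridization spike-in level of the CIITA-/- array differed from that of its IAb-/- partner by 0.20, -0.36 and 0.45 on the log2 scale in experiments 1 to 3. The dendritic label fitted the markers: all 12 dendritic markers on both designs, among them Itgax, Flt3, Ccr7, Irf8 and Batf3, were above noise in each experiment, and their summed level in experiments 2 and 3 was 551168 and 532774 units in CIITA-/- cells and 638014 and 471477 in IAb-/- cells. Every measured T cell, NK cell and mast cell marker was below the noise limit on every array, as were the macrophage markers C1qa, C1qb and C1qc and the granulocyte markers S100a8, S100a9, Mpo and Elane. Other macrophage markers, Csf1r, Cd68, Fcgr1 and Msr1, were above noise in every experiment, as were the granulocyte markers Csf3r, Cxcr2 and Camp. So were 1 B cell marker (Pax5), 1 erythroid marker (Klf1, 5674 to 8752 units over the 9 arrays) and 1 fibroblast marker (Fn1, 2272 to 6791 units).

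Class II chain genes separated the mutants by far. H2-Aa, encoding the I-A alpha chain, gave -1893, -1520 and -2254 units in CIITA-/- cells of experiments 1, 2 and 3, against 65738, 46977 and 29271 in IAb-/- cells and 33825, 51407 and 53578 in B6 cells. All 3 CIITA-/- arrays were below 0. IAb-/- was above B6 in experiment 1 and below it in experiments 2 and 3 (IAb-/- minus B6 log2 0.96, -0.13 and -0.87). Against the noise limit the gene was at least 29.8-fold, 27.6-fold and 17.2-fold lower in CIITA-/- than in IAb-/- cells of experiments 1, 2 and 3. The difference of floored log2 values averaged -8.64 (SE 0.36, 3 experiments, limma adjusted p = 0.0059). All CIITA-/- values were set to the floor, so the size depends on it. With the floor at the noise limit the mean was -4.6 (limma adjusted p = 0.26). The bulk RNA cannot tell fewer cells with a transcript apart from less transcript per cell, here or in any result that follows.

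H2-Eb1, encoding the I-E beta chain, was measured at 1621, 814 and 1059 units in CIITA-/- cells, at 44914, 23521 and 13882 in IAb-/- cells, and at 49869, 26063 and 30418 in B6 cells. Each CIITA-/- value was under the noise limit and each other value far above it. The gene was at least 20.4-fold, 13.8-fold and 8.16-fold lower in experiments 1, 2 and 3. Its mean log2 difference of floored values was -4.45 (SE 0.26, limma adjusted p = 0.02). With the floor at the noise limit it was -3.72 (limma adjusted p = 0.26). The H2-Eb1 promoter is the first of those shown above.

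H2-Ab1, the gene deleted in the other mutant, read 675, 615 and 112 units in CIITA-/- cells. It read 30749, 16070 and 9621 in IAb-/- cells and 44048, 17261 and 21348 in B6 cells. The probe set thus reported signal in cells labelled as lacking the gene, below B6 in every experiment (IAb-/- minus B6 log2 -0.52, -0.10 and -1.15). Where the disruption lies relative to the probes is not given, so the value does not check the label. The CIITA-/- values were all under the noise limit, against which the gene was at least 14.0-fold, 9.45-fold and 5.66-fold lower than in IAb-/- cells of experiments 1, 2 and 3. The mean log2 difference of floored values was -5.50 (SE 0.47), which depends on the floor (-3.18 with the floor at the noise limit) and missed the threshold (limma adjusted p = 0.074).

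The H2-DM chains, which exchange peptides on class II molecules in late endosomes, were graded. H2-DMb2 stood at 996, 300 and 303 units in CIITA-/- cells against 6144, 3112 and 2039 in IAb-/- cells and 12775, 4235 and 4541 in B6 cells. The genotypes did not overlap within either array design. The mean log2 difference of H2-DMb2 between the mutants was -2.92 (SE 0.19, limma adjusted p = 0.021), but the floor stands in for a measured level in part. Against the noise limit it was at least 2.79-fold, 1.83-fold and 1.20-fold lower in experiments 1, 2 and 3. H2-DMb1 remained above noise in CIITA-/- cells at 9913, 5507 and 2664 units, against 21089, 13488 and 7598 in IAb-/- cells and 32665, 15330 and 14460 in B6 cells. Its log2 differences were -1.09, -1.29 and -1.51 (mean -1.30, SE 0.21; limma adjusted p = 0.44). H2-DMb1 and H2-DMb2 are near-identical neighbours, and how far their probe sets share signal is not known. For H2-DMa, the partner alpha chain, CIITA-/- cells gave 14559, 9942 and 5387 units and IAb-/- cells 17562, 13853 and 9720, with B6 cells at 24466, 14151 and 12429. The CIITA-/- array was the lower in each experiment, by -0.27, -0.48 and -0.85 on the log2 scale (mean -0.53, SE 0.17; limma adjusted p = 0.98).

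Other class II pathway members showed no such loss. Cd74, the invariant chain that guides class II molecules to endosomes, gave 34924, 146496 and 142067 units in CIITA-/- cells against 28200, 181665 and 118974 in IAb-/- cells and 14649, 138308 and 129594 in B6 cells. In experiment 1 both mutants were above B6, CIITA-/- by 1.25 log2 units. The differences between mutants took both signs (log2 0.31, -0.31 and 0.26; mean 0.08, SE 0.28; limma adjusted p = 1.0), and the mean is -0.01 when arrays are scaled on the spike-ins. H2-Oa, a chain of the H2-DM inhibitor H2-DO, differed by 0.07, 0.05 and -0.84 (mean -0.24, SE 0.41). H2-Ob, H2-Eb2, H2-Ea and Ciita itself were below noise on every array, so they gave no level to compare. H2-Ea is known not to be transcribed in mice of the b haplotype. Ciita read 1822, 1601 and 1639 units in CIITA-/- cells and 1224, 398 and 644 in IAb-/- cells, and a probe set inside noise cannot check its own label.

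**Figure D1:**
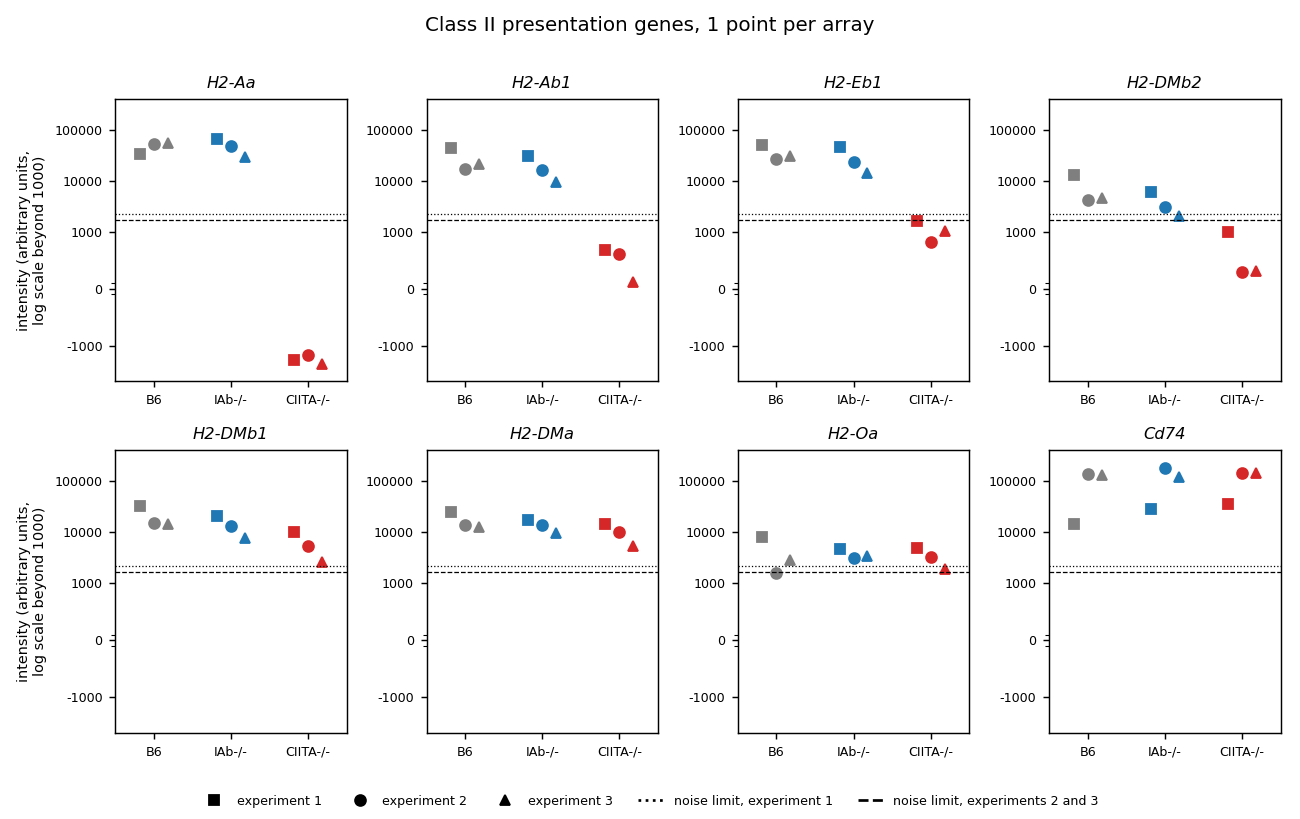
Intensity on each array for 8 class II pathway genes (vertical axis in arbitrary units, linear near 0 and logarithmic further out), by genotype and with a symbol for each experiment; dotted and dashed lines are the noise limits of 2203 and 1701 units. CIITA-/- arrays lie below the lines for H2-Aa, H2-Ab1, H2-Eb1 and H2-DMb2, above them for H2-DMb1 and H2-DMa, and above them for Cd74, whose values are higher in experiments 2 and 3 than in experiment 1 for every genotype.

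Over the 12 class II pathway genes as a group, 11 were tested and 3 were called lower in the fit over 3 experiments, none higher. In that fit 3 of 7768 probe sets were called (0.0386%), all of them class II genes, and 334 had an unadjusted p under 0.05. Of the 8 members above noise, 6 were lower in CIITA-/- cells in every experiment, beside 467 of all 3400 probe sets above noise (13.7%). The median log2 difference of the 8 was -2.11, beside -0.01 for the 3400. That median depends on the floor, as H2-DMb2 goes from -2.92 to -0.87 with the floor at the noise limit. H2-Aa, H2-Ab1, H2-Eb1 and H2-DMb2 passed the noise limit only through the IAb-/- arrays. The list was drawn up with class II results of these arrays known, so its count describes them and is no independent evidence. Leaving out the arrays of any 1 experiment ended all 3 calls, as did fitting the 6 mutant arrays without B6. The fit to experiments 2 and 3 alone, with no pairing, called 2 of 9312 probe sets (0.0215%): H2-Aa, lower, and Kcnk7, a potassium channel subunit, higher. Kcnk7 was under the noise limit on all mutant arrays and differed by -1.84, 3.08 and 2.98, the other way in experiment 1. With the experiment as a replicate block, that fit called 0.

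Factors that act at class II promoters, binding proteins and coactivators, gave small mean differences. Of 7 measured, 4 were above noise, and none of the 4 kept the same sign in every experiment. The number called was 0, beside 0.0386% of all probe sets tested. Nfya, Nfyb and Nfyc, the subunits of the Y-box factor NF-Y, had mean log2 differences of -0.07, -0.01 and 0.01. The histone acetyltransferase gene Kat2b differed by 0.35, 0.44 and -0.58 (mean 0.07). Rfxank, Creb1 and Crebbp were below noise on every array.

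Recurrence across experiments was asked without a test. At a difference of at least 1 log2 unit (2-fold) of the same sign in all 3 experiments, 7 of 3400 probe sets were lower in CIITA-/- cells (0.206%) and 1 was higher (0.0294%). The lower set held the 5 class II genes H2-Aa, H2-Ab1, H2-Eb1, H2-DMb2 and H2-DMb1, with Pim1 and Glo1 besides. Pla2g7 was the higher gene. At 0.5 log2 units, 14 were lower (0.412%) and 8 higher (0.235%). Most of the transcriptome did not repeat its differences: the sign was the same in all 3 experiments for 880 probe sets (25.9%), and over 3400 probe sets, which are not independent replicates, Spearman's rho between the differences of experiments 1 and 2, 1 and 3, and 2 and 3 was 0.16, -0.06 and -0.03. Pearson's r was 0.37, 0.28 and 0.30 for the same pairs.

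**Figure D2:**
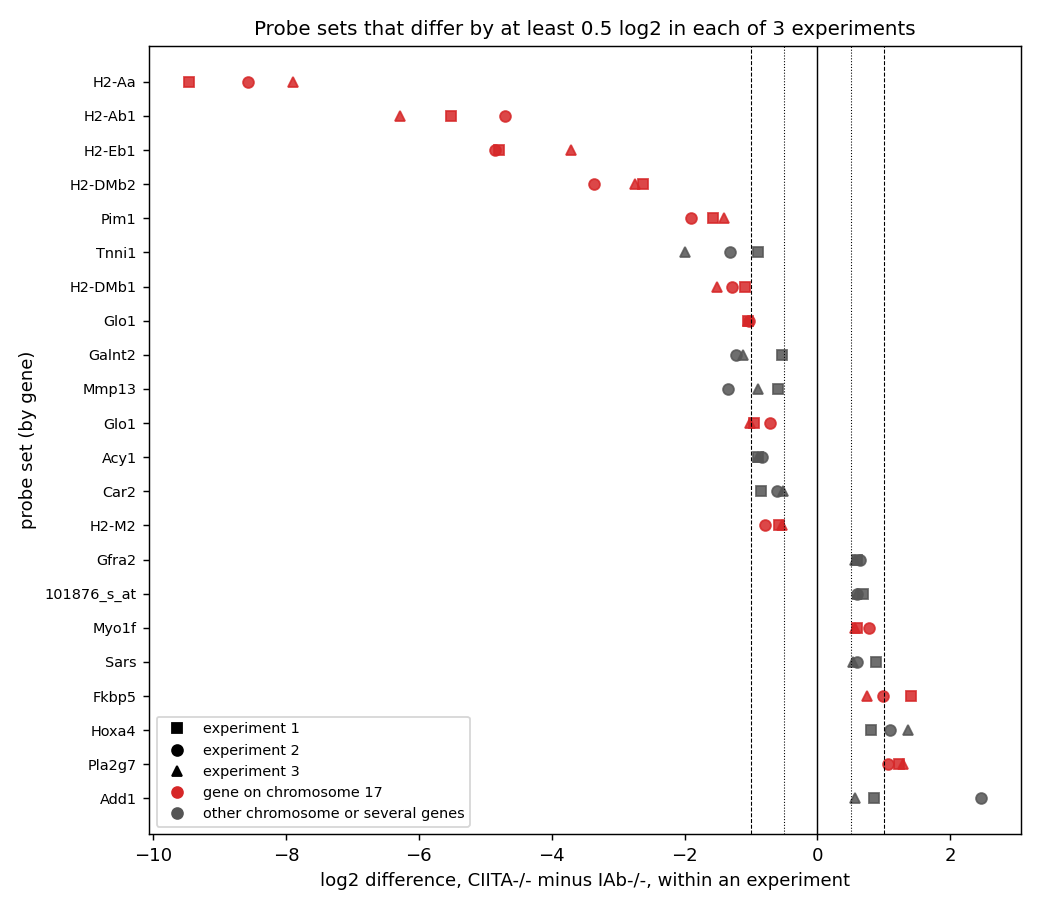
Log2 difference, CIITA-/- minus IAb-/-, within each experiment (horizontal axis) for the 22 probe sets that differ by at least 0.5 in the same direction in all 3; dashed lines mark 1 and dotted lines 0.5 log2 units, and red marks genes on chromosome 17. All 8 probe sets beyond 1 log2 unit in every experiment are red.

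Pim1, a serine/threonine kinase gene induced by cytokine receptor signalling, gave 2508, 1689 and 2153 units in CIITA-/- cells, 7444, 6335 and 5710 in IAb-/- cells, and 3516, 1775 and 1986 in B6 cells. On each array design, all IAb-/- arrays lay above every array of the other genotypes. The ratio of IAb-/- to CIITA-/- was 3.09 (mean log2 difference -1.63, SE 0.18), which missed the threshold (limma adjusted p = 0.22). Several CIITA-/- and B6 values sat near or under the noise limit. A second Pim1 probe set averaged -0.38.

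Glo1, the glyoxalase that clears methylglyoxal, differed almost equally in each experiment. CIITA-/- cells gave 3184, 2930 and 3215 units, B6 cells 3794, 3123 and 2815, and IAb-/- cells 6539, 5967 and 6638. The within-experiment differences were -1.04, -1.03 and -1.05 (SE 0.13; limma adjusted p = 0.31). A second Glo1 probe set repeated it at -0.96, -0.71 and -1.01. The IAb-/- arrays stood above the rest of their array design without overlap in both probe sets.

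Pla2g7, the secreted hydrolase that inactivates platelet-activating factor, was bright throughout. It read 33758, 16978 and 19920 units in CIITA-/- cells, 14507, 8155 and 8166 in IAb-/- cells, and 30574, 18138 and 18321 in B6 cells. CIITA-/- and B6 arrays agreed within 0.14 log2 units in every experiment, and the IAb-/- arrays were below both. The difference between mutants was 1.22, 1.06 and 1.29 (a ratio of 2.28; mean 1.19, SE 0.11; limma adjusted p = 0.085).

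Fkbp5, a glucocorticoid-responsive immunophilin gene, gave 4485, 4344 and 4384 units in CIITA-/- cells and 1683, 2206 and 2601 in IAb-/- cells. Its B6 values were 3508, 4299 and 3601, so the IAb-/- arrays were again the low ones. The log2 differences between mutants were 1.41, 0.98 and 0.75 (mean 1.05, SE 0.17; limma adjusted p = 0.44). Myo1f, encoding a class I myosin of leukocytes, differed by 0.59, 0.77 and 0.57 (mean 0.64, SE 0.14), with IAb-/- below B6 by -0.75, -0.67 and -0.27. Guca1a, a guanylate cyclase activator gene known from photoreceptors, was higher in CIITA-/- cells by 0.35, 0.86 and 0.91 (mean 0.71, SE 0.14), and below B6 in IAb-/- cells in each experiment.

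H2-M2, a nonclassical class I gene, went the other way about. It read 11103, 7404 and 7588 units in CIITA-/- cells, 16648, 12796 and 10998 in IAb-/- cells, and 28332, 11308 and 14028 in B6 cells. Here the CIITA-/- array was the lowest in every experiment. Its differences between mutants were -0.58, -0.79 and -0.54 (mean -0.64, SE 0.20; limma adjusted p = 0.98).

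**Figure D3:**
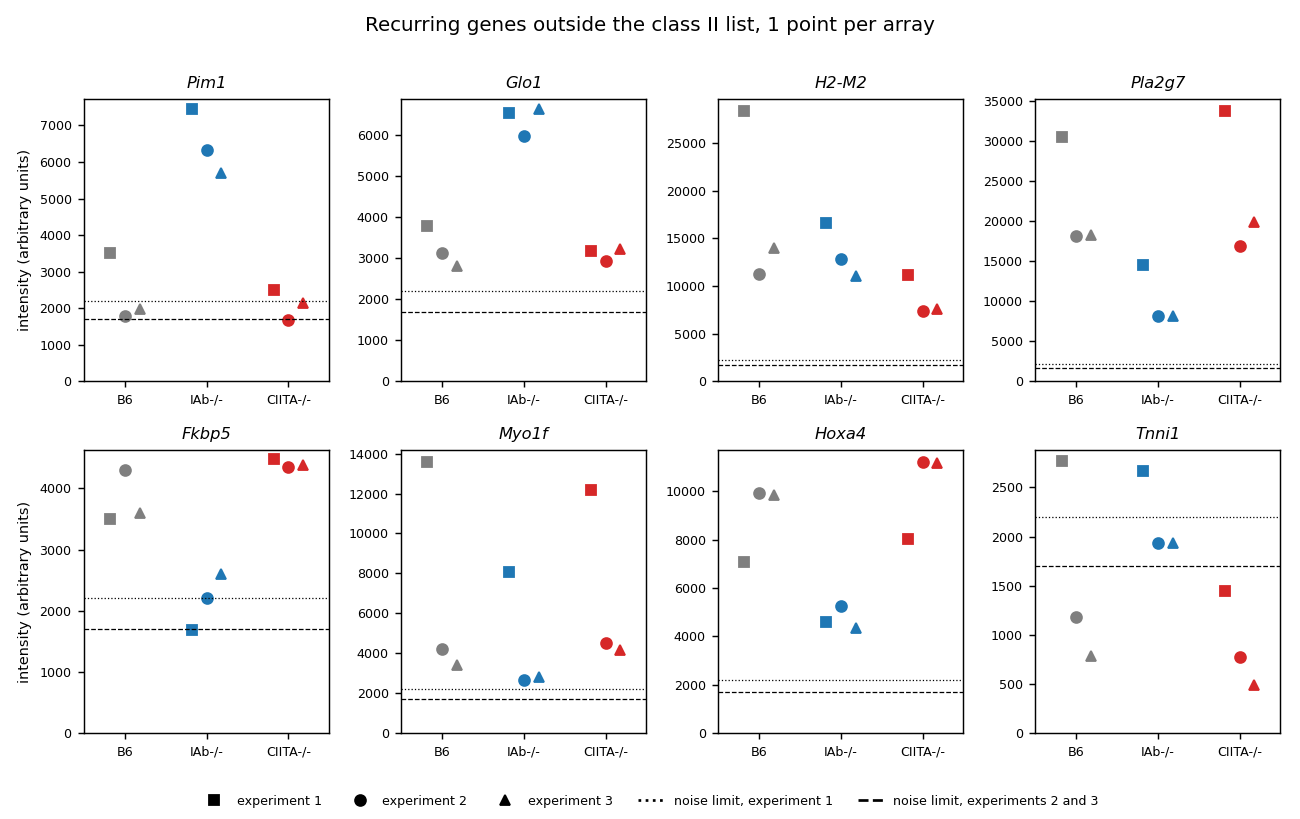
Intensity on each array (vertical axis from 0, arbitrary units) for 8 genes outside the class II list that recur at 0.5 log2 units, by genotype and experiment, with the noise limits as lines. IAb-/- arrays stand apart from CIITA-/- and B6 arrays for Pim1, Glo1, Pla2g7, Fkbp5 and Hoxa4, while for H2-M2 the CIITA-/- array is the lowest of each experiment.

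Pim1, Glo1, Pla2g7, Fkbp5, Myo1f, Guca1a and H2-M2 all lie on chromosome 17, as do the recurring class II genes. The location was counted after the values were seen. All 8 probe sets recurring at 1 log2 unit were on chromosome 17. At 0.5 log2 units, 21 of the 22 recurring probe sets could be placed, and 12 of them were on that chromosome. They were 12 of its 182 probe sets above noise (6.59%), against 9 of 2862 on all other chromosomes (0.314%). Without class II genes the share on chromosome 17 was 7 of 175 (4.0%). These 7 belong to 6 genes, with Glo1 counted by both its probe sets. Guca1a, at 0.35 in experiment 1, is not among them. Gene order, taken from RefSeq, placed the 7 between the 41st and 116th of 161 measured genes on the chromosome, on both sides of H2-Ab1. Guca1a lies outside that stretch. Counted from H2-Ab1, Fkbp5 lay 40, Pim1 32, Glo1 30 and Myo1f 25 measured genes to one side, and H2-M2 34 and Pla2g7 35 to the other. The stretch is bounded by the recurring genes themselves, so its ends follow from them, and 7 of its 83 probe sets outside the class II list recurred.

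The genes of this stretch differed in which mutant lay farther from wild type. For the 5 recurring class II probe sets the CIITA-/- mean departed from B6 by 1.88 to 8.65 log2 units in size and the IAb-/- mean by 0.01 to 0.89. For the 6 others on chromosome 17 apart from H2-M2, IAb-/- was the farther: its mean departed by 0.56 to 1.48 and the CIITA-/- mean by 0.05 to 0.22. The IAb-/- departures of the class II probe sets and of the 6 overlap in size, with H2-DMb2 at 0.89. IAb-/- departed from B6 in the same direction in each experiment for all 6, and for 4 of the 5 class II probe sets. The exception, H2-Aa, had 0.96, -0.13 and -0.87, which nearly cancel in its mean. All these probe sets were picked by their differences from the same IAb-/- arrays, so an even direction is partly built in. Both sets of values use the same B6 arrays, so they are not independent of each other. Among the 9 recurring probe sets on other chromosomes, IAb-/- was the farther from B6 in 4. The strain around each deletion is not given in the labels, and neither its part in these values nor any other cause was tested.

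**Figure D4:**
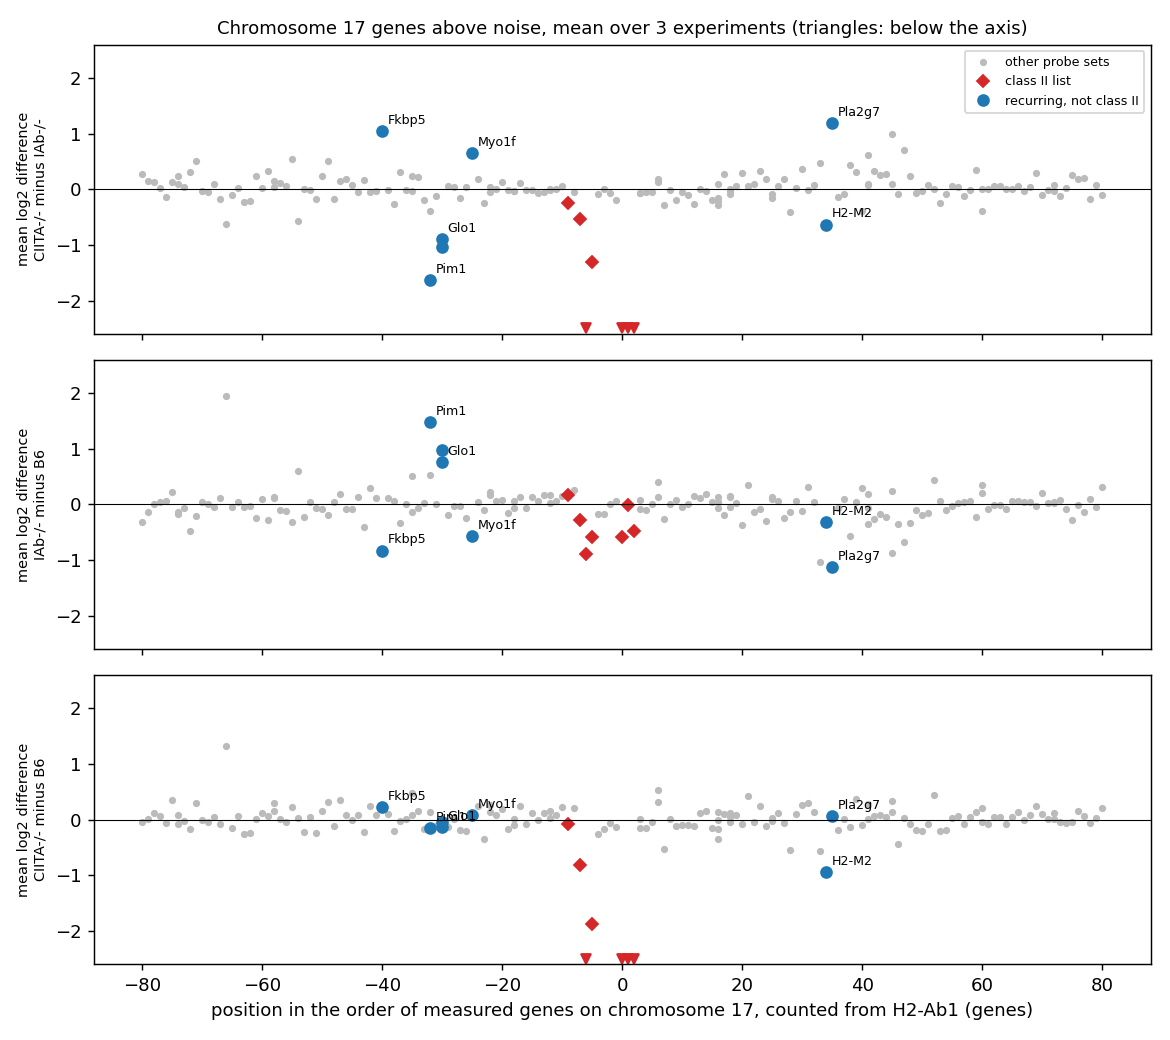
Mean log2 difference over 3 experiments (vertical axes) for probe sets above noise on chromosome 17, in gene order counted from H2-Ab1 (horizontal axis, in measured genes): CIITA-/- minus IAb-/- on top, IAb-/- minus B6 in the middle and CIITA-/- minus B6 below. The recurring class II genes lie farthest below 0 in the top and bottom panels, with smaller departures in the middle panel (H2-DMb2 -0.89), while Pim1, Glo1, Myo1f, Fkbp5 and Pla2g7 lie away from 0 in the top and middle panels and near it in the bottom panel.

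Listed neighbours of H2-Ab1, a list without class II genes, gave no calls in the fit over 3 experiments. Neither did the recurring chromosome 17 genes that are not class II. That fit called 0.0386% of all probe sets tested. The class II genes next to H2-Ab1, H2-Aa and H2-Eb1, were called. The list is not confined to the closest genes, as Bak1 lies farther out than Fkbp5. Of 42 listed neighbours on both designs, 22 were above noise, 0 were called, and their median log2 difference was -0.05. Tap1 and Psmb8, which supply peptides to class I molecules and lie among the class II genes, differed by 0.00 (SE 0.10) and -0.06 (SE 0.10). Psmb9 differed by -0.09 and Tap2, the partner of Tap1, by -0.19 (SE 0.16). The extremes of the 22 were Cyp21a1 at -0.28 and Lst1 at 0.27, each with mixed signs over the experiments. Around Ciita on chromosome 16, the 6 neighbours above noise ran from -0.03 for Litaf to 0.10 for Nubp1 and Gspt1, and Socs1, a brake on cytokine signalling, was at 0.02 (SE 0.11).

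The 9 recurring probe sets on other chromosomes fell short of 1 log2 unit in at least 1 experiment, and none of them was called. Hoxa4, a homeobox gene, gave 8042, 11225 and 11190 units in CIITA-/- cells against 4601, 5256 and 4325 in IAb-/- cells and 7084, 9920 and 9858 in B6 cells. Its mean difference was 1.09 (SE 0.15; limma adjusted p = 0.31), but 2 other Hoxa4 probe sets gave -0.64 and 0.00. Tnni1, a troponin gene, was lower in CIITA-/- cells by -0.89, -1.32 and -2.0, all its CIITA-/- values being under noise. Acy1, an aminoacylase, was lower by -0.90, -0.84 and -0.90. Mmp13, a collagenase, averaged -0.94 (SE 0.34), Galnt2, which starts mucin-type glycans, -0.96 (SE 0.29), and Car2, a carbonic anhydrase, -0.66 (SE 0.16). Galnt2 was under noise in CIITA-/- cells of experiments 2 and 3, and its mean was -0.44 with the floor at the noise limit. Add1, encoding a membrane skeleton adducin, averaged 1.29 (SE 0.45) with most of it from experiment 2 (2.46, against 0.85 and 0.56). Its IAb-/- values in experiments 1 and 2 were under noise, and its mean was 1.12 with the floor at the noise limit. Sars, a seryl-tRNA synthetase gene, averaged 0.67 and Gfra2, a neurturin receptor gene, 0.60.

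Further genes had a difference of the same sign in every experiment but very uneven sizes. Ccne1, encoding cyclin E1, differed by 2.95, 4.33 and 0.01, and Sprr2i by 1.96, 0.05 and 4.25, but the large values are set by the floor, as the IAb-/- arrays were then under noise. With the floor at the noise limit the means go from 2.43 to 0.48 and from 2.09 to 0.42. Igfbp4, which binds insulin-like growth factors, differed by -0.41, -3.95 and -0.40, and its other probe sets gave 0.32 and -0.32. The mean of Igfbp4 likewise goes from -1.58 to -0.18 and that of Mea1 from 1.00 to 0.35 with that floor. Mea1 (2.70, 0.01 and 0.28), Sox13 (1.25, 1.44 and 0.08), Smarcb1 (0.84, 1.28 and 0.06) and Acp1 (1.40, 0.29 and 0.64) were uneven too, with limma adjusted p = 0.98 for each. Other probe sets on both designs averaged -0.22 and 0.10 for Mea1, and -0.09, 0.09, 0.08 and -0.10 for Acp1.

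Plxna1, a semaphorin receptor gene known as a CIITA-dependent gene, stayed within noise on most arrays. It gave -805, -1931 and 1086 units in CIITA-/- cells and 2398, 667 and -900 in IAb-/- cells, above noise on 1 of those 6 arrays. Its differences took both signs (log2 -4.69, -2.43 and 3.14; mean -1.33, SE 1.40; limma adjusted p = 0.98). Of 19 plexin, semaphorin and neuropilin pathway genes on both designs, 9 were above noise, with a median of 0.01. The number called was 0, where 0.0386% of all probe sets tested were called. Sema7a, a membrane-anchored semaphorin, was lower in CIITA-/- cells in each experiment (-0.40, -0.22 and -0.46; mean -0.36, SE 0.14; limma adjusted p = 0.98), Plxna3 took both signs (mean 0.19) and Plxnd1 averaged 0.15.

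Genes of dendritic cell function outside class II gave no calls. The fit called 3 of 7768 probe sets (0.0386%), so 0 calls in a list says little about its members. Of 25 lists examined, 24 had 0 members called in the fit over 3 experiments, and the medians of the 18 other lists with at least 3 members above noise lay between -0.17 and 0.38. In the class I pathway 14 genes were above noise, with a median of -0.03. H2-M3, which presents formylated peptides, was higher in CIITA-/- cells by 0.19, 0.68 and 0.53 (mean 0.47, SE 0.15; limma adjusted p = 0.98), while its other probe set averaged -0.82. Both mutants lay below B6 in the first probe set in every experiment (CIITA-/- by -0.49, -0.63 and -0.60, IAb-/- by -0.68, -1.31 and -1.13). In the lysosomal list, which includes the proteases that trim antigen, 18 members were above noise with a median of -0.02, and cathepsin L, Ctsl, took both signs (0.33, -0.50 and -0.65).

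Of 13 maturation and costimulation genes above noise, 8 were lower in CIITA-/- cells in every experiment and 0 higher, with a median of -0.15 and none called. Over all 3400 probe sets above noise, 467 (13.7%) were lower in every experiment and 413 (12.1%) higher. Tnfrsf9, the receptor for the costimulatory ligand 4-1BBL, averaged -0.25 (SE 0.18), and Ccr7, which directs dendritic cells to lymph nodes, -0.19 (SE 0.17). Cd86 averaged -0.17 (SE 0.12), also among the dendritic markers, whose median was -0.10. Under scaling on the spike-ins the median of all probe sets tested moves from -0.01 to -0.11. Members of the list move along with it, Ccr7 to -0.29 and Tnfrsf9 to -0.35. The cause of these differences was not tested.

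Inflammatory cytokine and chemokine genes had a median of -0.17 over 13 members above noise, and its value in experiments 1, 2 and 3 was -0.13, -0.37 and -0.02. Il1a gave 2129, 1443 and 1621 units in CIITA-/- cells against 2762, 2178 and 2216 in IAb-/- cells (mean -0.47, SE 0.24; limma adjusted p = 0.98), close to the noise limit. Ccl4, a chemokine for monocytes and T cells, averaged -0.33 (SE 0.31), Il1rn, the interleukin-1 receptor antagonist, -0.32 (SE 0.18), and Il6 -0.29 (SE 0.17). Interferon-induced genes had a median of 0.04 over 8 members above noise, and 16 others were below noise on every array.

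Metabolic and lipid mediator genes gave single members with even but small differences. Idi1, an isomerase of cholesterol synthesis, was higher in CIITA-/- cells by 0.46, 0.45 and 0.52 (mean 0.48, SE 0.22; limma adjusted p = 0.98), while the list's median was -0.06 over 5 members above noise. Tbxas1, thromboxane synthase, was higher by 0.21, 0.22 and 0.30, and Ltc4s, leukotriene C4 synthase, lower by -0.36, -0.23 and -0.17. With Pla2g7, these gave the lipid mediator list a median of 0.15 over 5 members. Glycolysis and hypoxia genes had a median of -0.09 over 11 members, Fc and uptake receptors -0.03 over 7, immediate early and heat shock genes 0.01 over 13, and proliferation genes -0.08 over 4.

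Among granulocyte markers, 3 of 11 on both designs were above noise. Cxcr2, a chemokine receptor, was higher in CIITA-/- cells by 0.37, 0.33 and 0.43 (mean 0.38, SE 0.12; limma adjusted p = 0.98). Csf3r took both signs (-0.37, 0.94 and 1.06), as did Camp (-1.38, 1.36 and 0.13). In experiments 1, 2 and 3 the summed level of the list was 17173, 18238 and 16923 units in CIITA-/- cells. It was 19201, 16952 and 14297 in IAb-/- cells and 12724, 14822 and 13682 in B6 cells. Of its 12 measured markers, 8 were below noise on every array. Macrophage markers above noise, among them Csf1r and Cd68, had a median of 0.00 over 4.

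**Figure D5:**
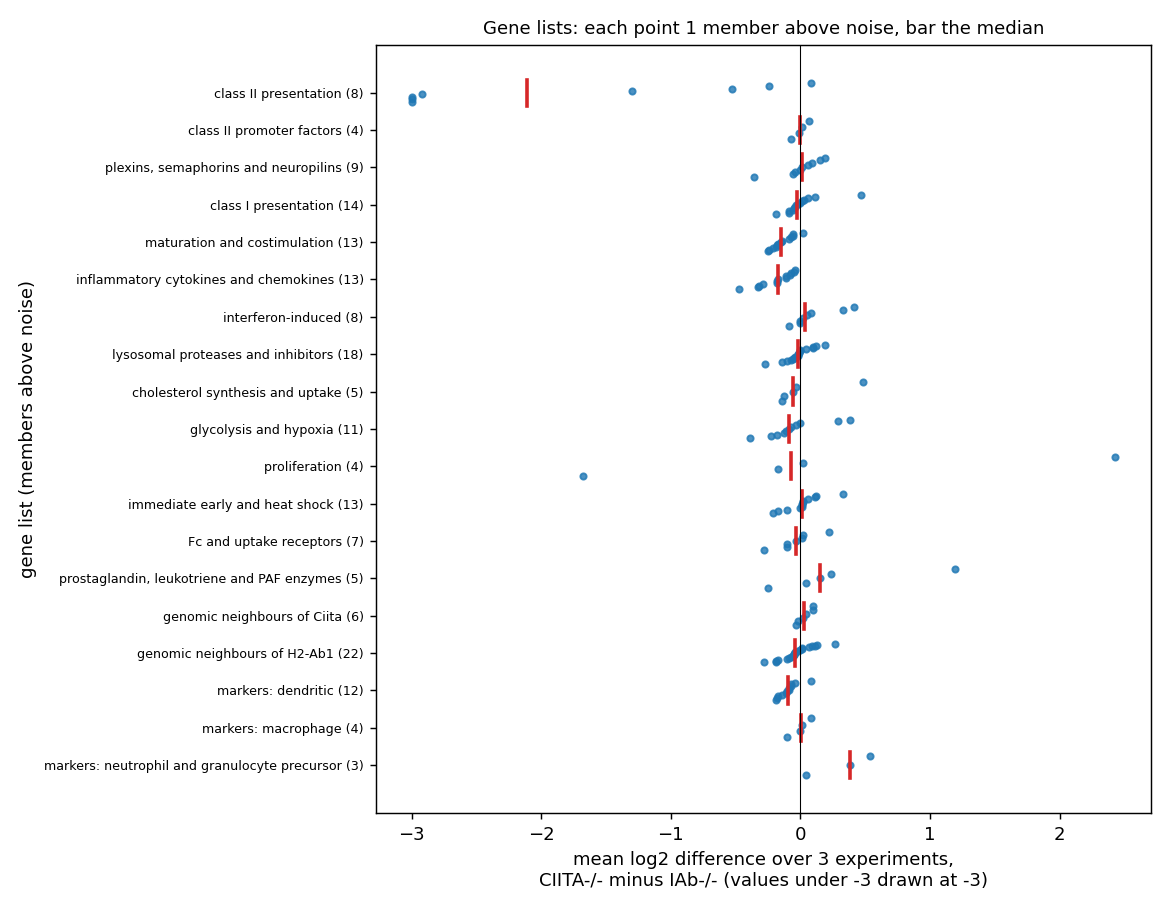
Mean log2 difference over 3 experiments, CIITA-/- minus IAb-/- (horizontal axis, values under -3 drawn at -3), for each list member above noise (points) with the median of its list (bar). The class II list has a median of -2.11, and the other 18 lists have medians between -0.17 and 0.38.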

How the data were processed

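Intensities of 9 Affymetrix arrays, as deposited by the authors in 2 tables (6 arrays of experiments 2 and 3, 12488 probe sets; 3 arrays of experiment 1, of another design, 12654), were used. Software and build are not given in the sources used here. Values reach below 0, and their trimmed mean (2% left out at each end) is nearly equal between arrays. Controls were left out. Gene names came from the platform annotation: 10833 and 10276 probe sets have 1 gene, 396 and 363 several, 1193 and 1949 none. Values were floored at each table's 30th percentile (123.51 and 93.23), log2-transformed and fitted with limma 3.58.1 in R 4.3.3, called at adjusted p under 0.05 after Benjamini-Hochberg over all probe sets tested. One fit took the 6-array table by genotype, for probe sets above the floor on at least 2 arrays; the other took shared probe sets of all 9 arrays, above it on at least 3, with the experiment as a block, so that levels were never set across tables. Residual degrees of freedom were 3 and 4. The code of the fits was run on simulated data with an equal spread for every probe set and no experiment effect. That checks the code and not the error rate in these data. Titles name the experiments, and same-numbered arrays deviated together weakly (correlations 0.048, 0.079 and 0.215), so the paired fit is a stated alternative in the 6-array table. A lower bound divides by the noise limit, or the gene's own value if higher.

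Named genes were Ciita, Plxna1 and class II members, all called and recurring probe sets, a fill to 12 a direction by mean difference of 1 sign, up to 4 a list, and neighbours above noise; the brightest probe set stands for a gene. Car2, Sars and Gfra2 and, with their locations, the probe sets recurring at 0.5 were chosen after their values were seen. Members, lists and tests were chosen with earlier results of these data known. Alternatives were other floors, filters, scalings, a generalized log, no block, and leaving out arrays. The number of arrays limits the precision.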

Additional observations from a re-analysis of the deposited data

How the results depend on the processing

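Over the 3 experiments, the 3 calls became 0 with the floor at the noise limit, with no filter and with the 6 mutant arrays alone, and 0 without any 1 replicate (lowest 0, highest 0); they became 5 with the floor at the 40th percentile (added after the data were seen), 5 with no replicate block (H2-Ab1 and Pla2g7 joining both times), and 8 with a generalized log (H2-Ab1, Pla2g7, Glo1, Pim1 and Hoxa4 joining). In the 6-array table the 2 calls became 0 with the replicate block, 0 with mutant arrays alone, 4 with the floor at the noise limit (neither H2-Aa nor Kcnk7 among them), 7 with no filter and 7 with spike-in scaling (both among them each time), and 0 to 1 without a replicate. H2-Aa was also lost with the 40th percentile floor and Kcnk7 with the generalized log. Recurrence at 1 log2 unit counted 7 lower and 1 higher; at 0.5 it counted 14 and 8, the 90th percentile noise limit gave 2 higher, and spike-in scaling 0 higher, with 5 on chromosome 17. With 1 experiment left out, 9 to 11 were lower, 3 to 5 higher, and 8 on chromosome 17 each time. Of 670 alternative values of 67 named probe sets, 627 kept direction and side of the threshold, 9 went to 0.00, 15 lost a call, 10 gained one and 9 turned sign: Cd74 (-0.01), Tap1 (-0.09) and Socs1 (-0.07) with spike-in scaling, and with 1 replicate left out Cd74 (-0.03 to 0.28), Tap1 (-0.03 to 0.04), Socs1 (-0.05 to 0.08), Plxna1 (-3.56 to 0.35), H2-Ob (-0.58 to 0.32) and H2-Oa (-0.4 to 0.06). Fewer arrays or fewer degrees of freedom mark the fits without B6 or a replicate; for the other settings the cause was not tested. The floor at the 20th percentile was not run, because that percentile lies below 0 (-32 and -132.3).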
